A study of Mus musculus with 292 samples.

Results

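Collagens and laminins are the structural proteins of the extracellular matrix, and 42 of their genes were followed across the brains of 292 F2 mice. The genes were chosen by name: a symbol of Col, a digit and the letter a, or of Lama, Lamb or Lamc and a digit, with 1 probe per gene, the one with the largest standard deviation (SD) across mice. Of 10835 named genes on the array, 33 collagens and 9 laminins met the rule. The reference annotation holds 54 protein-coding genes of such names, and 12 of them were not analysed here, among them Col3a1, Col4a5 and Col9a3. Col1a2 was not analysed here. No member had a missing value on any array.

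Fibrillar collagens, of which type I is the most abundant in skin and bone, form the fibres of connective tissue. In the brain, fibrous matrix lies mostly in the meninges and around larger vessels, while the basement membranes of vessels and of the brain surface are sheets of type IV collagen and laminin. Laminins are trimers of an alpha, a beta and a gamma chain, and type IV collagen is also a trimer, with Col4a1 and Col4a2 as the chains of its ubiquitous form.

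All mice belonged to 1 group. C57BL/6J and C3H/HeJ, both inbred, were crossed in either direction and their F1 offspring bred to each other to give these F2 animals, females and males together. Neither the sex nor the genotype of a single mouse was used here. Chow with 4% fat was given up to 8 weeks of age. A Western diet of 42% fat and 0.15% cholesterol followed for 12 weeks, and brains were taken at 20 weeks from animals fasted for 12 hours. Every animal had eaten the same diet, so no member can be compared between diets. RNA of each brain, labelled with Cy3, was hybridised once against a Cy5-labelled pool made from equal portions of all samples. The comparisons open to the data were therefore each gene against the pool, the arrays of 1 batch against another, and genes with each other across mice.

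Values are log10 ratios of mouse to pool, and the SDs and ranges below are on this scale unless a fold is named. The labels state the dyes but neither the direction nor the base. Mouse over pool is the likely direction, since the Y-linked gene Eif2s3y then had a mean linear ratio of 0.79 in base 10, near the 1 that a pool of all mice requires, against 21.6 with the sign turned (0.738 and 1.96 in base 2). These values do not settle the base: base 10 was assumed, and every fold below, with the 1.2-fold threshold, rests on it and would be smaller in base 2. With the sign turned, higher would read lower, and every correlation would stay as it is. Sets of recurrently missing probes marked 3 batches, A (74 arrays), B (77) and C (141). The median r between arrays was 0.109 over all probes (lowest -0.638, highest 0.795), and 3.39% of array pairs lay under -0.3. Correlations below were taken after centring each gene on its batch mean unless a batch is named, and values given by batch stand in the order A, B and C. With 1 array per mouse, measurement error is part of the spread. In whole tissue, fewer cells of a type and less RNA per cell cannot be told apart.

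The type IV and type VI chains were examined at their promoters because the genes of each pair lie side by side. Col4a1 and Col4a2 (gene IDs 12826 and 12827, chromosome 8) are read from opposite strands, from starts that RefSeq places 21 bases apart. The Col4a1 start (base 11312826, minus strand) has the higher coordinate and the Col4a2 start (base 11312805, plus strand) the lower. From these starts the transcripts therefore overlap at their first bases, and each upstream stretch lies on the side where the other gene is read. The first stretch spans both starts, the next lies upstream of the Col4a2 start and the last upstream of the Col4a1 start (RefSeq, build GRCm38.p6). Capitals mark a GC box (GGGCGG) or a CCAAT box (CCAAT), each searched on both strands.

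Col4a1 and Col4a2 starts, chr8:11312801-11312830, plus strand: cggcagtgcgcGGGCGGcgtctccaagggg
before Col4a2, chr8:11312751-11312780, plus strand: agcgcgCCGCCCgaggagctccCCAATttg
before Col4a1, chr8:11312954-11312983, minus strand: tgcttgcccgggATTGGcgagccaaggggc

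The GC box between the starts belongs to the 300-base windows of both genes (250 bases before the start and 50 after), which share 78 bases. The Col4a2 window held 3 GC boxes and 1 CCAAT box, and the Col4a1 window held 1 of each. A GC box occurred in 35.7% and a CCAAT box in 37.4% of 32851 promoter windows of the same length. For Col6a1 and Col6a2, neighbours on chromosome 10 that are read in the same direction from separate promoters, the 250 bases before the start are shown. For Col6a2, RefSeq gives 2 starts, and the sequence precedes the farther upstream one.

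Col6a1, chr10:76726045-76726294, minus strand: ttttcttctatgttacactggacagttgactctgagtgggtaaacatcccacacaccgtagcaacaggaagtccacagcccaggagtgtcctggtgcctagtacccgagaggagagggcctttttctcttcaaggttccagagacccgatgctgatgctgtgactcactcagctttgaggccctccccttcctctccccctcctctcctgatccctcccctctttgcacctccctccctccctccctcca
Col6a2, chr10:76623631-76623880, minus strand: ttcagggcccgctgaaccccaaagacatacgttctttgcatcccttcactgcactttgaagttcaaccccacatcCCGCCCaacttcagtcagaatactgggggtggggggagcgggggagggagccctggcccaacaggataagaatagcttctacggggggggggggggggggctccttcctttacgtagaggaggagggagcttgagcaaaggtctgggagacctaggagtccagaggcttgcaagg

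The Col6a1 window held neither box, and the Col6a2 windows held 1 and 3 GC boxes and no CCAAT box. A TATA box (TATAAA, 13.6% of windows) and a half-site of the glucocorticoid receptor (TGTTCT, 19% of windows) were found in none of these windows on either strand. These counts say only which letters stand in the windows. Of the 42 members, 31 had a promoter window in the table.

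The spread of matrix genes between mice resembled that of other genes. The median SD of the members was 0.0512, or 1.13-fold, and that of all named genes was 0.0513. Of the 42 members, 21 lay above the median SD of named genes and 2 above its 95th percentile of 0.12. Since each gene's probe was chosen by its SD, these values are a description.

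The 2 most variable members were Col23a1 and Col26a1. Col23a1, a transmembrane collagen, ran from -0.277 over a median of -0.00805 to 0.422 (SD 0.137, n = 292), and its 5th to 95th percentile spanned 2.72-fold. A further Col23a1 probe had an SD of 0.0346 and did not follow it (r = 0.0203), so the value rests on 1 of 2 probes that disagree. Col26a1, a short collagen known from testis and ovary, ran from -0.329 over -0.0215 to 0.371 (SD 0.134). These 2 genes were the ones above the 95th percentile.

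Col1a1, the main chain of type I collagen, came next. It ran from -0.273 over -0.0416 to 0.414 (SD 0.0998). Other probes annotated Col1a1 carry a rat gene ID and were left out, since they did not match the mouse gene. The Col1a1 values therefore rest on 1 probe. Lamc3, a laminin gamma chain of the brain surface and retina, ran from -0.34 over -0.000104 to 0.533 (SD 0.0863). Lama2, the alpha chain of muscle and brain vessel laminin whose loss causes congenital muscular dystrophy, ran from -0.21 over 0.0566 to 0.19 (SD 0.0794).

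Col19a1, a fibril-associated collagen, had an SD of 0.0778 (lowest -0.202, median 0.0319, highest 0.263). Col17a1, the transmembrane collagen of hemidesmosomes, had an SD of 0.0763 (-0.277, -0.011 and 0.206). Col6a3, a chain of the beaded filaments of type VI collagen, had an SD of 0.0753 (-0.267, -0.0105 and 0.169). The other 34 members had SDs from 0.0253, in the fibril-associated Col14a1, to 0.0744, in the fibrillar Col27a1. The basement membrane chains Col4a1 (SD 0.0561) and Col4a2 (SD 0.0604) lay near the middle of all named genes, with 58.1% and 64.4% of named genes below them in SD.

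**Figure D1:**
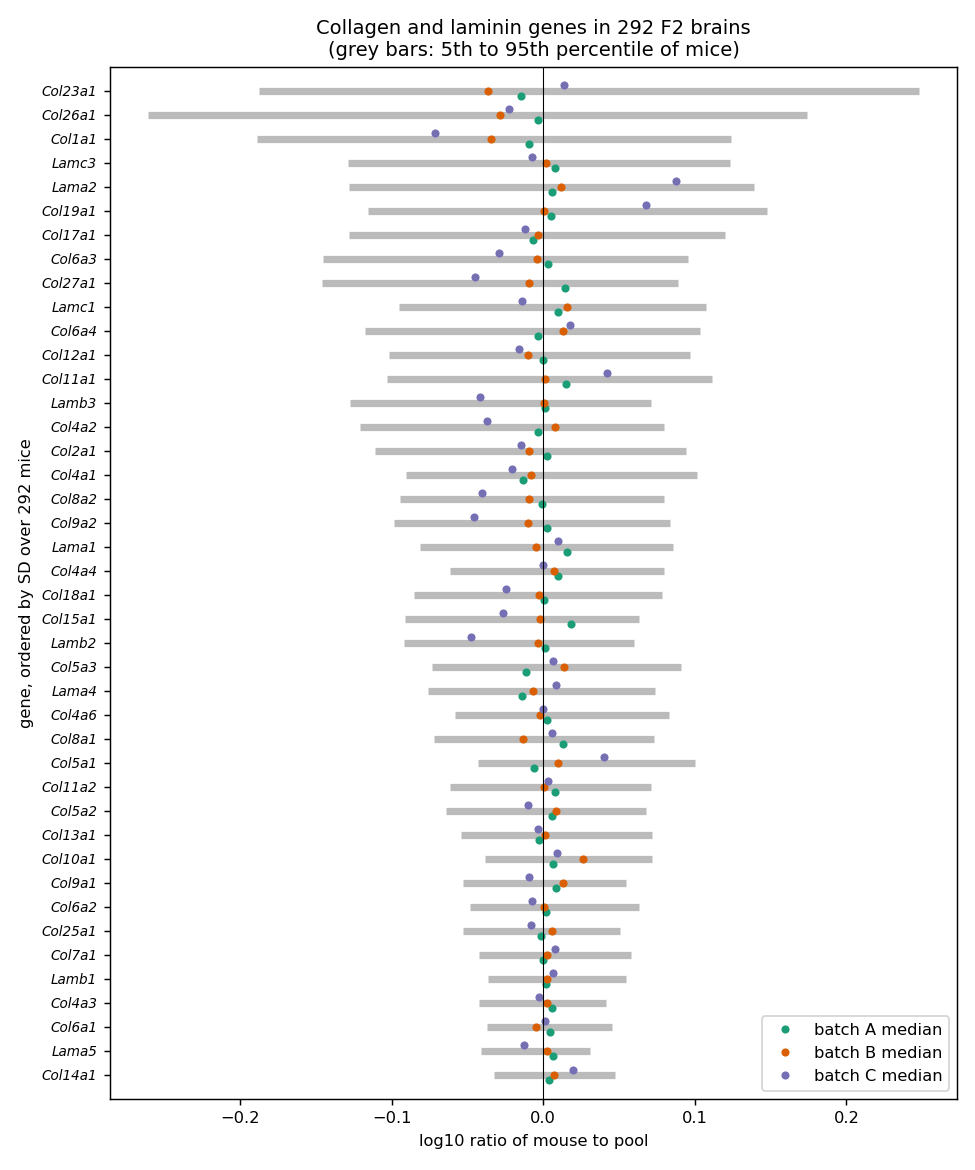
Log10 ratio of mouse to pool for the 42 collagen and laminin genes, ordered by SD. Grey bars run from the 5th to the 95th percentile of 292 mice and points are the medians of the 3 batches. Col23a1 and Col26a1 have the longest bars, and the batch C median of Lama2 (0.0876) stands right of those of batches A (0.00562) and B (0.0119).

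Against the pool no member was displaced by as much as 1.2-fold. The pool holds equal portions of all samples, so means near 0 were set by the design. Every mouse was labelled with Cy3 and the pool with Cy5, so a dye effect and a difference in mean cannot be told apart. At an adjusted p under 0.05 (limma, Benjamini-Hochberg over 23549 probes) and a mean of at least 1.2-fold, 0 of 42 members were called, beside 0.766% of named genes. Without the fold threshold 25 members had an adjusted p under 0.05, 9 above the pool and 16 below it, beside 69.7% of named genes. At an unadjusted p under 0.05 there were 27 members. No share of named genes was computed at an unadjusted p, here or below. The largest mean was that of Lama2 at 0.0398 ± 0.00463 (SE, n = 292), and the lowest was that of Col1a1 at -0.0392 ± 0.00581, with 205 of 292 mice below the pool.

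Between batches, Lama2 was called and the other 41 members were not, beside 9.68% of named genes called in at least 1 of the 3 contrasts. Lama2 (gene ID 16773, chromosome 10) had values from -0.21 over 0.00562 to 0.15 in batch A, from -0.179 over 0.0119 to 0.149 in batch B, and from -0.0223 over 0.0876 to 0.19 in batch C. The batches overlapped, but batch C lacked the low values of the others, and its SD was 0.039 against 0.0847 in batch A and 0.0824 in batch B. Batch C was higher than batch A by 0.0883 ± 0.00942 (SE), or 1.23-fold, with an adjusted p of 2.19e-17, and higher than batch B by 0.0901 ± 0.0093 (1.23-fold, adjusted p = 2.49e-18; limma). Among named genes 4.46% were called higher and 4.3% lower in batch C than in A, and 4.02% higher and 3.77% lower than in B. Between batches B and A, 0 members were called and 5 had an unadjusted p under 0.05, beside 0.166% of named genes called higher and 0.0461% lower. Without the fold threshold 20 members differed between C and A (7 higher in C and 13 lower), 24 between C and B (9 and 15) and 0 between B and A, beside 63.8%, 61.8% and 1.58% of named genes. Mice of different batches may differ in ways the labels do not give, and such differences and the batch cannot be told apart.

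Lama2 was also the 1 member of 42 whose mice fell into separate levels by the mixture rule (a gain of over 10 in the Bayesian information criterion, means over 3 SDs apart, each level with at least 5% of mice), beside 6.41% of named genes and 6.57% of all probes. The levels lay at -0.1 (15.1% of mice) and 0.0668 (84.9%), 1.47-fold apart. Centred on batch means, the values no longer met the rule, and within batches A, B and C taken alone they did not either.

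The next question was which matrix genes rose and fell together from mouse to mouse. Over the 861 pairs of members the median batch-centred r was 0.0525, and over all pairs of named genes it was -0.00257. Called were 92 positive pairs (10.7%) and 27 negative pairs (3.14%), at an adjusted p under 0.05 (limma over 989014 fits) and an absolute r of at least 0.3. Pairs of a member with any named gene were called positive in 7.52% and negative in 6.26%. Of all pairs of named genes, 9.33% had an r of at least 0.3 and 8% an r of at most -0.3. Whether the member shares differ from these was not tested. Of the 119 called pairs, 117 had the same sign in every batch, and 106 kept an absolute r of 0.3 without the 2 mice farthest from the median. In 116 of them r had the smallest p that 100000 permutations within batches can give (1e-05), and in 112 Spearman's rho did. The signs by batch and the permutations reuse the values on which the pairs were called, so they are not separate evidence.

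The highest pair was Col11a2, a fibrillar chain of cartilage and inner ear, with Col6a4, a type VI chain (r = 0.80, rho = 0.76). By batch its r was 0.91 (A), 0.93 (B) and 0.50 (C). The genes nearest to these chains were not matrix genes. For Col6a4 they were led by the defensin Defa3 (r = 0.95) and the slow muscle troponin Tnni1 (r = 0.94), for Col11a2 by the salivary protein gene Prh1 (r = 0.88), and for Col23a1 by Prim2 (0.97), the nonclassical MHC gene H2-M10.5 (0.96) and the skin protein gene involucrin, Ivl (0.96). Defensins, slow troponin, salivary proteins and involucrin belong to other tissues, and what the shared values measure was not tested.

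The basement membrane pair Col4a1 and Col4a2 came next (r = 0.64, rho = 0.62, adjusted p = 1.93e-32). Col4a1 ran from -0.144 over -0.0143 to 0.169 and Col4a2 from -0.219 over -0.0243 to 0.149. By batch the pair correlated at 0.73 (A), 0.67 (B) and 0.55 (C), and it stood at 0.63 without the 2 farthest mice. Col6a1 and Col6a2, partner chains of type VI collagen, had r = 0.545 (rho = 0.56; 0.55, 0.59 and 0.44 in batches A, B and C; adjusted p = 1.62e-21).

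Not every adjacent pair was called. Col4a3 and Col4a4, head-to-head neighbours on chromosome 1 that encode the type IV chains of kidney and inner ear, had r = -0.0163 (rho = -0.104, permutation p = 0.777). Within batches they ran from -0.32 in A and -0.23 in B to 0.23 in C. Col9a1 and Col19a1, fibril-associated neighbours on the same chromosome, had r = 0.0594 (permutation p = 0.307). Of the 4 adjacent member pairs, those of Col4a1 with Col4a2 and Col6a1 with Col6a2 were thus called. Other genes stood nearer to most of these chains. Col4a2 had its highest r with Clcn2 (0.735), and Col4a1 was the last of its 20 nearest named genes. The lowest r among the 20 nearest was 0.573 for Col6a1 and 0.597 for Col6a2, above the r of their pair.

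**Figure D2:**
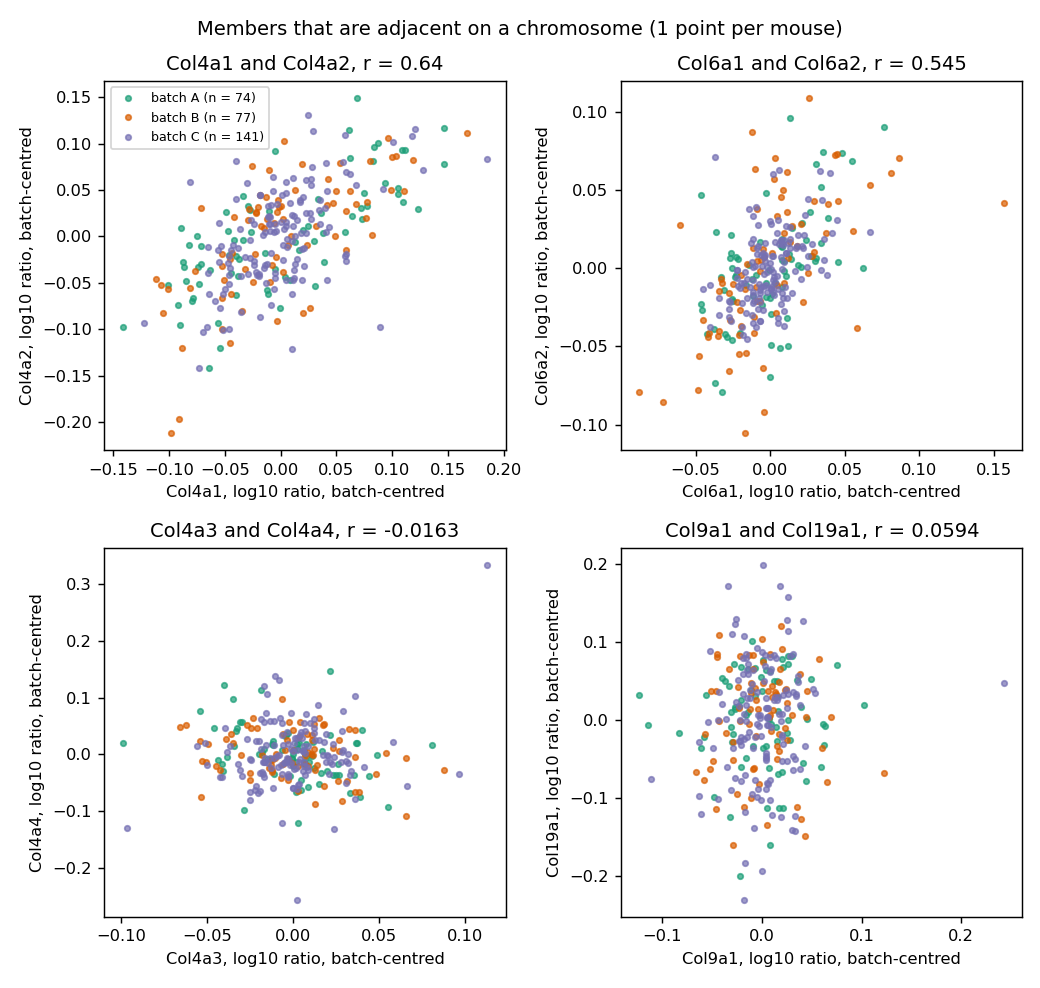
Batch-centred log10 ratios of the 4 member pairs that are adjacent on a chromosome, 1 point per mouse, coloured by batch. The points of Col4a1 with Col4a2 (r = 0.64) and Col6a1 with Col6a2 (r = 0.545) rise together, while r was -0.0163 for Col4a3 with Col4a4 and 0.0594 for Col9a1 with Col19a1.

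The other high pairs were of several classes. Col12a1, a fibril-associated collagen of tendon, went with Col4a3 (r = 0.59; 0.60 in each of the 3 batches). Col5a1, a chain that starts collagen fibrils, went with Lamb2, the beta chain of vessel and synaptic laminin (r = 0.57), and its r was 0.20 before centring on batches. Col4a2 went with Lama1, the alpha chain of the embryonic and leptomeningeal basement membrane (r = 0.56; 0.50, 0.49 and 0.66 by batch). Col6a2 went with Lamb2 (r = 0.53).

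Col18a1, the source of endostatin, Col8a2, a network collagen of the cornea, and Col9a2, a fibril-associated collagen of cartilage, formed a trio, with r = 0.55 (Col18a1 and Col8a2), 0.54 (Col8a2 and Col9a2) and 0.53 (Col18a1 and Col9a2). In batch C these were 0.35, 0.38 and 0.37. Other genes were nearer to each: the lowest r among the 20 nearest named genes was 0.679 for Col18a1, 0.697 for Col8a2 and 0.647 for Col9a2. Members differed in how many of the 41 others were called with them, and each count is set beside the share of named genes called with the same member. Col18a1 had 14 positive partners (34.1%, beside 13.3% of named genes) and Col4a2 had 13 (31.7%, beside 11.4%). Col5a1, Col6a2 and Lamb2 had 12 each (29.3%), beside 6.16%, 17.4% and 17% of named genes. Lamb3, a skin laminin chain, had 11 (26.8%, beside 9.41%). Whether these shares differ from those of named genes was not tested. Col10a1, Col14a1, Col4a4 and Lamc1 had 0 called partners in limma, where the shares of named genes were also low: 4.77%, 0.415%, 2.07% and 0.508% positive and 1.26%, 0.0923%, 2.36% and 0.0369% negative.

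Lama2 had more negative than positive partners. Of the 41 other members 10 were negative (24.4%, near the 22.2% of named genes) and 2 positive (4.88%, beside 16.1%), 29 were not called, and the median r was -0.175. The lowest pair of all was Lama2 with Col9a2 (r = -0.64, rho = -0.57), at -0.78, -0.73 and -0.24 by batch. Lama2 with Lamb2, a beta chain of the same kind of trimer, had r = -0.48 (-0.55, -0.57 and -0.23). The other of the 3 lowest pairs was Col25a1, a neuronal transmembrane collagen found in amyloid plaques, with Col6a3 (r = -0.49; -0.45, -0.53 and -0.48). The genes nearest to Lama2 were Golga5 (r = 0.85), Ckap5 (0.84) and Smc3 (0.80), of the Golgi, the spindle and the cohesin ring.

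Within gene classes most pairs were not called, and differences between classes were not tested. The median r was 0.111 within the 28 fibrillar pairs, with 6 positive and 1 negative called, 0.00674 within the 10 type IV pairs, with 1 called, and -0.00869 within the 6 type VI pairs, with 1 called. Laminins among themselves (36 pairs) had a median of 0.0132 with 2 positive and 5 negative, and collagens with laminins (297 pairs) had 0.0446 with 33 and 12.

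The largest axis of variation over all arrays touched the members about as often as other genes. The first principal component held 12.3% of the batch-centred variance, and 18 of 42 members (42.9%) had an absolute r of at least 0.3 with it, beside 47.6% of named genes. Lamb2 (0.60) stood highest and Col19a1 (-0.62), Lama2 (-0.57) and Col11a1 (-0.57) lowest. With the component as a further term, added after the data were seen, Col4a1 with Col4a2 stayed at 0.64, Col6a1 with Col6a2 at 0.46 and Lama2 with Col9a2 at -0.57.

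**Figure D3:**
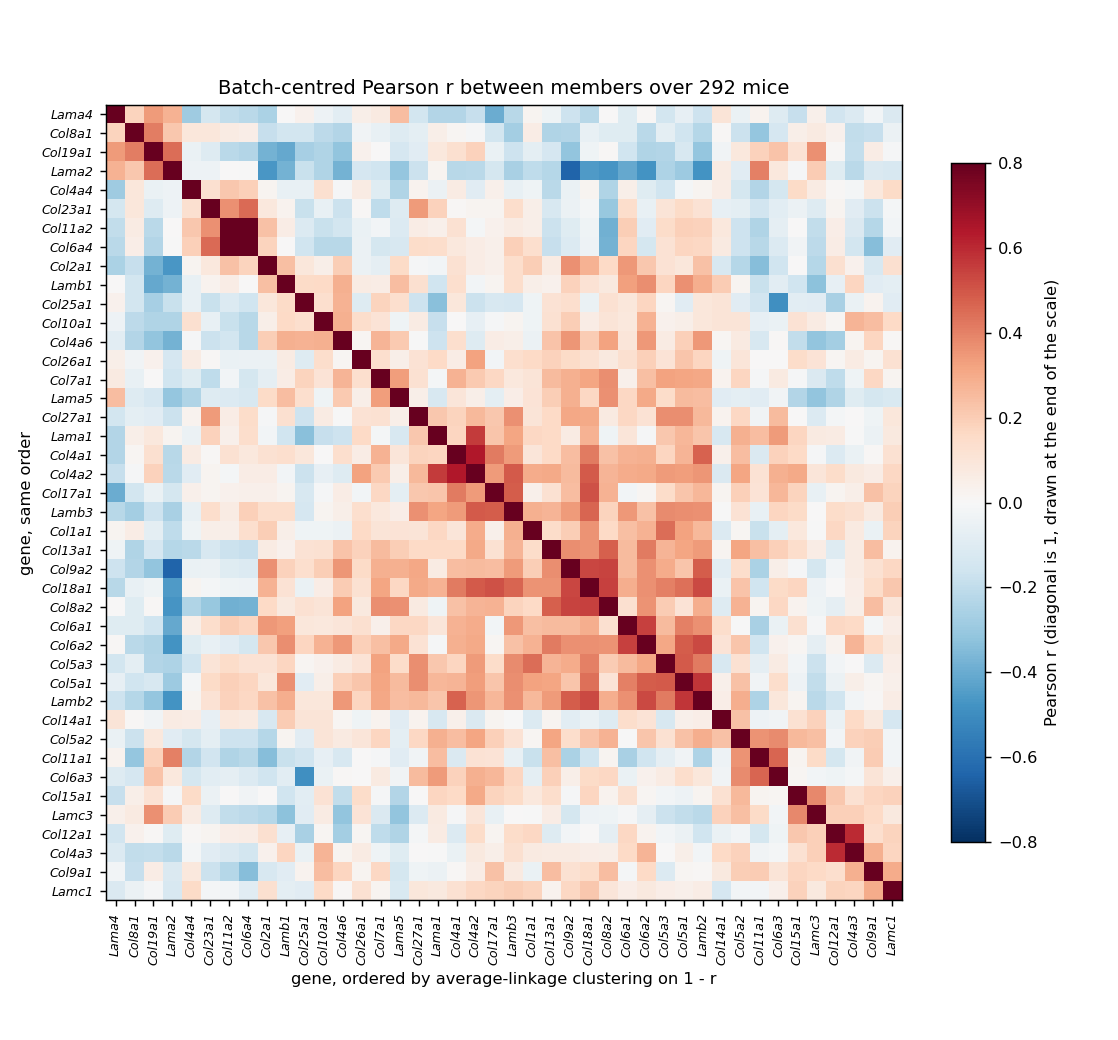
Batch-centred Pearson r of each of the 861 member pairs over 292 mice, with genes ordered by clustering on 1 minus r. A mostly red block holds Col18a1, Col4a2, Col5a1, Col6a2 and Lamb2 (29.3% to 34.1% of the other members positive, beside 6.16% to 17.4% of named genes), and the row of Lama2 is mostly blue (24.4% negative, beside 22.2% of named genes).

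Each of 3 anchor genes, Col4a1 for basement membrane, Col1a1 for fibres (Col3a1, the first choice, was not measured) and Lamc1, the gamma chain of most laminins, was then set against all genes. With Col4a1, 5 of the other 41 members rose and 0 fell, beside 7.46% and 5.19% of named genes. They were Col4a2, Lamb2 (r = 0.47), Col18a1 (0.42), Col17a1 (0.415) and Lamb3 (0.34). The median r of the members was 0.129 and that of named genes 0.0169. The nearest genes of Col4a1 were the kinase gene Map3k6 (r = 0.68; 0.82, 0.69 and 0.50 by batch), Vasn, a TGF-beta-binding membrane protein (0.67), Ctla2a (0.67), adenosine deaminase, Ada (0.67), and Ctdspl (0.66).

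Of 18 other basement membrane genes measured, 2 rose with Col4a1: agrin, Agrn (r = 0.34), the heparan sulphate proteoglycan of basement membranes, and fibulin 2, Fbln2 (0.31). Of 22 genes that modify, fold or process collagen, 3 rose and 1 fell, led by the lysyl oxidase Loxl1 (0.38) and the protease Tll1 (-0.45). Of 16 matrix receptors, Itga7 (0.305), a laminin receptor chain, rose, and the collagen receptor Lair1 (-0.485) and Sgce (-0.45), a sarcoglycan, fell. Of 18 matrix enzymes and inhibitors, Timp3 (0.34) and Htra1 (0.32) rose. Of 21 other matrix genes, Fmod (0.38), fibromodulin, rose. Lists were read with the same threshold as the members, at which 7.46% of named genes rose with Col4a1 and 5.19% fell. Whether the lists differ from these shares was not tested.

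Several of the genes near Col4a1 are known targets of the glucocorticoid receptor, so 12 such genes were listed after the values were seen and are described without a test. With Col4a1 their median r was 0.443 and 7 of 12 had an r of at least 0.3, beside 7.46% of named genes called positive. The 7 were Map3k6, the gene nearest to Col4a1, Cdkn1a (0.64), Fkbp5 (0.53), Tsc22d3 (0.51), Plekhf1 (0.49), Sgk1 (0.47) and Nfkbia (0.42). Map3k6 and Cdkn1a had been seen near Col4a1 when the list was made, so the median and the count were partly fixed by the choice. Fkbp5 had r = 0.61, 0.68 and 0.34 with Col4a1 in batches A, B and C. The other 5 genes lay lower, at 0.18 (Per1), 0.16 (Klf9), 0.13 (Zbtb16), 0.0533 (Lcn2) and -0.0454 (Arrdc2), and in batch C Per1 (-0.17), Klf9 (-0.0218) and Zbtb16 (-0.188) were negative. With Col4a2 the median was 0.188, with 3 genes at 0.3 or above and the acute-phase gene Lcn2 at -0.34. With Col1a1 the median was 0.0238 and no gene of the list reached 0.3. The difference between Col4a1 and Col4a2 was not tested.

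With Col1a1, 3 of 41 members rose and 0 fell, beside 4.98% and 4.34% of named genes. They were fellow fibrillar chains of type V, Col5a3 (r = 0.45) and Col5a1 (0.32), and Col18a1 (0.36). Of the 22 collagen processing genes, 5 rose and 1 fell: Loxl1 (0.42), the collagen chaperone Serpinh1 (0.38), the procollagen protease enhancer Pcolce (0.37), and the lysyl hydroxylases Plod3 (0.33) and Plod1 (0.31) rose, and Sec23a, of the vesicle coat that exports procollagen, fell (-0.37). The gelatinase Mmp2 rose (0.35; 1 of 18 matrix enzymes), as did aggrecan, Acan (0.32), and Ltbp2 (0.315; 2 of 21 other matrix genes), while Sgce fell (-0.37; 1 of 16 receptors). Of the 18 basement membrane genes 0 were called with Col1a1 by limma, and 6 had an unadjusted p under 0.05.

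The nearest genes of Col1a1 were Hnrnpl (r = 0.57), the osteocalcin gene Bglap2 (0.56), the zinc carrier Slc39a1 (0.55), tartrate-resistant acid phosphatase, Acp5 (0.55), an enzyme of osteoclasts, and Alg3 (0.54). For this reason 13 bone and marrow genes were listed, also after the values were seen and without a test. Their median r with Col1a1 was 0.317, and 7 had an r of at least 0.3, beside 4.98% of named genes called positive. Bglap2 and Acp5, which prompted the list, are counted in it, so the median and the count were partly fixed by the choice. The 7 were Bglap2, Acp5, Bglap (0.48), Ibsp (0.32) and the neutrophil granule genes Ngp (0.40), Camp (0.35) and S100a8 (0.32). Of the same kind, Ltf (0.15) and Mmp9 (-0.073) stayed below 0.3. The osteoblast genes Sp7 (-0.0981), Alpl (0.0285) and Dmp1 (-0.072) and the osteoclast gene Ctsk (-0.157) lay near 0 or below. With Col4a1 and Col4a2, 0 of the 13 reached 0.3. Bglap2 had r = 0.72, 0.63 and 0.31 by batch with Col1a1, and a rho of 0.38 over all. A score of cartilage and bone markers, described below, holds Bglap, Ibsp, Sp7, Alpl and Dmp1. Col1a1 was not called with that score. The part of bone or marrow tissue in the Col1a1 values was not tested.

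With Lamc1, 0 of 41 members were called by limma, beside 0.508% of named genes positive and 0.0369% negative, and 18 had an unadjusted p under 0.05. The median r of the members was 0.0599 and that of named genes 0.000835. The 2 probes of Lamc1 did not follow each other (r = -0.048). The genes nearest to the probe used were Adam25 (r = 0.51), Nanog (0.46), Odf1 (0.45), Epb41l4b (0.44) and Tmem45b (0.44), of which Adam25 and Odf1 are genes of sperm and Nanog is one of embryonic stem cells. In the 5 matrix lists 0 genes were called by limma, and an unadjusted p under 0.05 was found for 9 of 22 processing genes, 7 of 21 other matrix genes, 6 of 18 enzymes, 0 of 18 basement membrane genes and 0 of 16 receptors. For these unadjusted counts and that of the members no share of named genes was computed.

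Markers of the cells that make brain matrix were then summed into scores, each the mean standardised value of its list. Across 19 scores and 42 members, 58 of 798 relations were called. No share of named genes was computed over all scores together, and the share with each score is given below. The vascular score joins the endothelial and mural lists, so relations with these scores overlap. Of the 58 relations, 55 had the same sign in every batch and 56 kept an absolute r of 0.3 without the 2 farthest mice. All 58 had the smallest permutation p for r (1e-05). These checks reuse the values on which the relations were called, so they are not separate evidence. In batch A 50 of the 58 relations reached an absolute r of 0.3, in batch B 55 and in batch C 22.

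The vascular markers called members about as often as other genes. With the joint score of endothelial and mural genes, Lama4 rose (r = 0.48) and Col17a1 fell (-0.32), beside 3.9% and 1.18% of named genes. Lama4, the alpha chain of endothelial laminin, ran from -0.203 over 0.00266 to 0.165 and had r = 0.50 with the endothelial score alone (0.63, 0.65 and 0.24 by batch). Col17a1 (-0.44) and Lamb3 (-0.40) fell with that score (3.26% of named genes rose with it and 1.88% fell). Col4a2 rose with the mural score of pericytes and smooth muscle (r = 0.36; 0.33, 0.37 and 0.39 by batch; beside 3.05% of named genes up and 1.58% down), and Col4a1 was not called with it. The vascular list was itself loose: its 37 measured genes had a median pair r of 0.0202, and 8 of them had an r of at least 0.3 with the rest of the list. The endothelial list alone was no tighter, with a median pair r of 0.00366 and 5 of 23 genes at 0.3 or above. For the mural list these were 0.102 and 5 of 14.

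With the leptomeningeal score, of the fibroblasts that cover the brain, Col8a2 (r = 0.36) and Col13a1 (0.35) rose and 0 members fell, beside 3.68% and 2.19% of named genes. In batch C they had 0.19 and 0.10. Col1a1 and Col6a3, collagens of fibroblasts, were not called. Of 24 genes on that list, 10 followed the rest at 0.3 or above and 1 ran against it.

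Col8a1 moved with the choroid plexus score. This network collagen (gene ID 12837, chromosome 16) ran from -0.136 over 0.000757 to 0.13 and had r = 0.57 with the score of choroid plexus markers (rho = 0.57, adjusted p = 2.63e-23, limma), with 0.64, 0.69 and 0.46 in batches A, B and C and 0.57 without the 2 farthest mice. It was 1 of 42 members, beside 0.222% of named genes up and 0.00924% down. Its nearest named gene was F5, coagulation factor V, which is on the choroid plexus list (r = 0.61). The next nearest, Usp40 (0.585), Zfp3 (0.583), Hsp90b1 (0.575) and Zfp617 (0.57), are not on the choroid plexus list. Of the 11 measured genes of that list, 7 followed the rest at 0.3 or above, and transthyretin, Ttr, followed it most closely (0.65).

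Markers of other cells and regions moved with some members. Col18a1 rose with the cerebellar score (r = 0.48, rho = 0.34; beside 1.12% of named genes up and 0.0647% down), at 0.55, 0.58 and 0.19 by batch, and at 0.33 without the 2 farthest mice. With the neuron score 1 member rose, Lama2 (0.58), and 11 fell, led by Col18a1 (-0.55) and Lamb2 (-0.53), beside 12.2% and 14% of named genes. In batch C alone Lama2 stood at -0.00901 with it. Of the 9 measured genes on the neuron list, 2 followed the rest at 0.3 or above and 1 ran against it. With the olfactory bulb score 8 rose, led by Lamb2 (0.46) and Col9a2 (0.40), and Lama2 fell (-0.50), beside 10.2% and 9.91%.

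With the striatal score 4 members rose, led by Col4a2 (0.41) and Col26a1 (0.39), and Lama2 fell (-0.35), beside 8.95% and 5.46% of named genes. With the astrocyte score Col17a1 (0.41), Col4a1 (0.39) and Col8a2 rose and Col23a1 (-0.32) fell, beside 7.53% and 3.35%. Of the 15 measured genes on the astrocyte list, 3 followed the rest at 0.3 or above. With the oligodendrocyte score Col8a2 rose, and Col6a4 (-0.46), Col23a1 (-0.37) and Col11a2 fell, beside 5.67% and 6.33%. The cortical and hippocampal score had 5 members up, led by Col8a2 (0.51), and Lama2 down (-0.44), beside 12.9% and 7.29%. The hypothalamic score had 5 up, led by Col9a2 (0.41), and Lama2 down (-0.47), beside 12.8% and 6.95%. Col18a1 rose with the thalamic score (0.32; 2.71% of named genes up and 1.3% down), and Col4a3 with that of cartilage and bone (0.31; 1.26% up and 2.16% down). On either of these lists 0 genes followed the rest at 0.3 or above.

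The scores of microglia (2.66% of named genes up and 2.65% down), erythrocytes (0.12% and 0%), pituitary (0.148% and 0%) and skeletal muscle (0.286% and 0%) had 0 called members in limma, with 12, 13, 14 and 3 at an unadjusted p under 0.05. The bracketed shares are of calls, and none was computed at an unadjusted p. The part of cell or tissue content in the relations above was not tested.

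**Figure D4:**
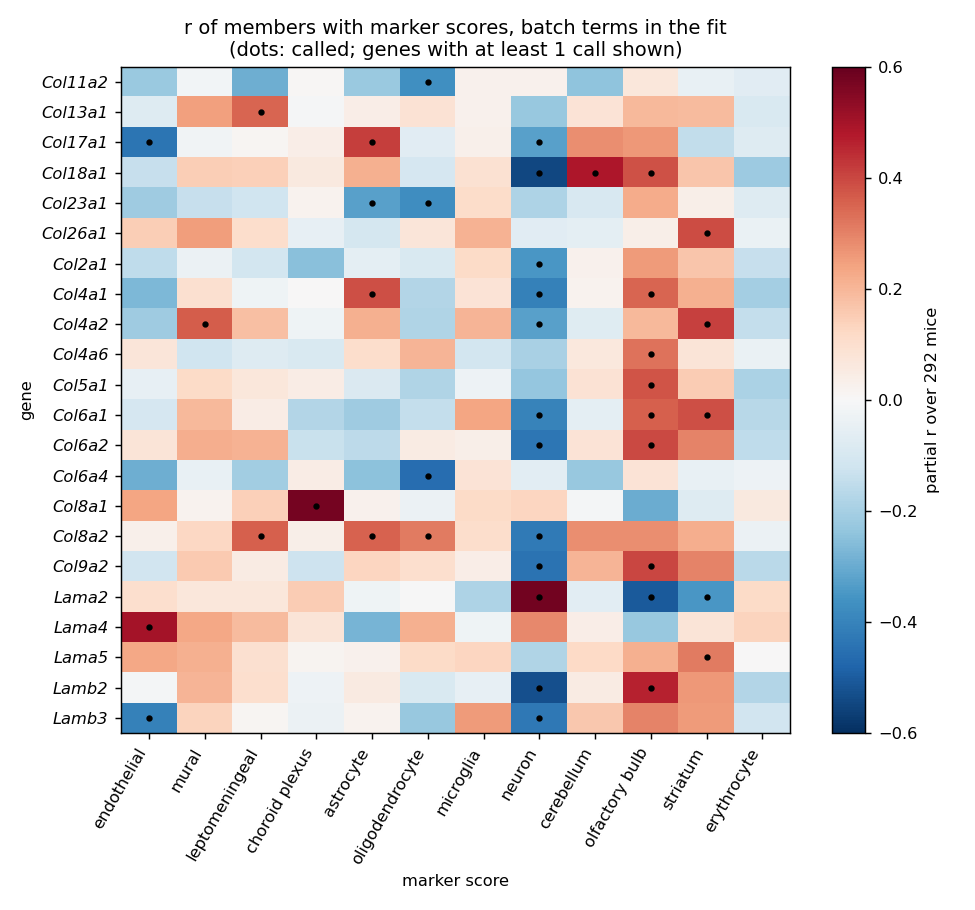
Correlation r of members with 12 marker scores over 292 mice, with batch terms in the fit, for the members with at least 1 call among these scores; dots mark calls. Col8a1 stands out in the choroid plexus column (0.57) and Lama4 in the endothelial column (0.50), while dots in the neuron column lie on blue fields apart from Lama2 (0.58).

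For most members the genes of most similar pattern were spread over the genome. Of the 20 named genes nearest in r, the median named gene had 1 on its own chromosome, and 37 of 42 members had at most 3. Col6a3 (chromosome 1) had 13, Col26a1 (chromosome 5) had 11 and Col27a1 (chromosome 4) had 10. A count of at least 10 was reached by 3.2% of named genes. Col6a3, Col26a1 and Col27a1 were taken further because of these counts. Their higher share of correlated genes on the own chromosome than on others was therefore partly fixed by the choice.

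For Col6a3 the same-chromosome genes were led by Thap4 (r = 0.57), the neural transcription factor Hes6 (0.56), 13 genes away, and Scly (0.50), 8 genes away. Hes6 had r = 0.50, 0.54 and 0.61 with Col6a3 by batch. Of 59 named genes with at most 50 genes between them and Col6a3, 9 (15.3%) had an absolute r of at least 0.3, against 17 of 202 (8.42%) with 201 to 400 genes between and 172 of 10065 (1.71%) on other chromosomes.

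For Col27a1, a fibrillar collagen of cartilage, the nearest gene in pattern was Alad, of haem synthesis, 7 genes away (r = 0.62; 0.46, 0.60 and 0.69 by batch). With at most 50 genes between, 7 of 40 (17.5%) reached an absolute r of 0.3. The share did not fall evenly: it was 1 of 36 (2.78%) at 51 to 100 genes, 11 of 104 (10.6%) at 101 to 200, 9 of 163 (5.52%) at 201 to 400 and 3 of 269 (1.12%) beyond, against 203 of 10059 (2.02%) on other chromosomes.

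For Col26a1 it was Mafk, a small Maf transcription factor, 86 genes away (r = 0.67; 0.67, 0.65 and 0.68 by batch), followed by Rnf10 (0.52) and Ift22 (0.52), the gene next to it. Its correlates lay further off: 3 of 62 (4.84%) with at most 50 genes between, 11 of 108 (10.2%) at 201 to 400 and 135 of 10028 (1.35%) on other chromosomes. The mouse genotypes were not used here, and the part of linkage in these patterns was not tested.

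**Figure D5:**
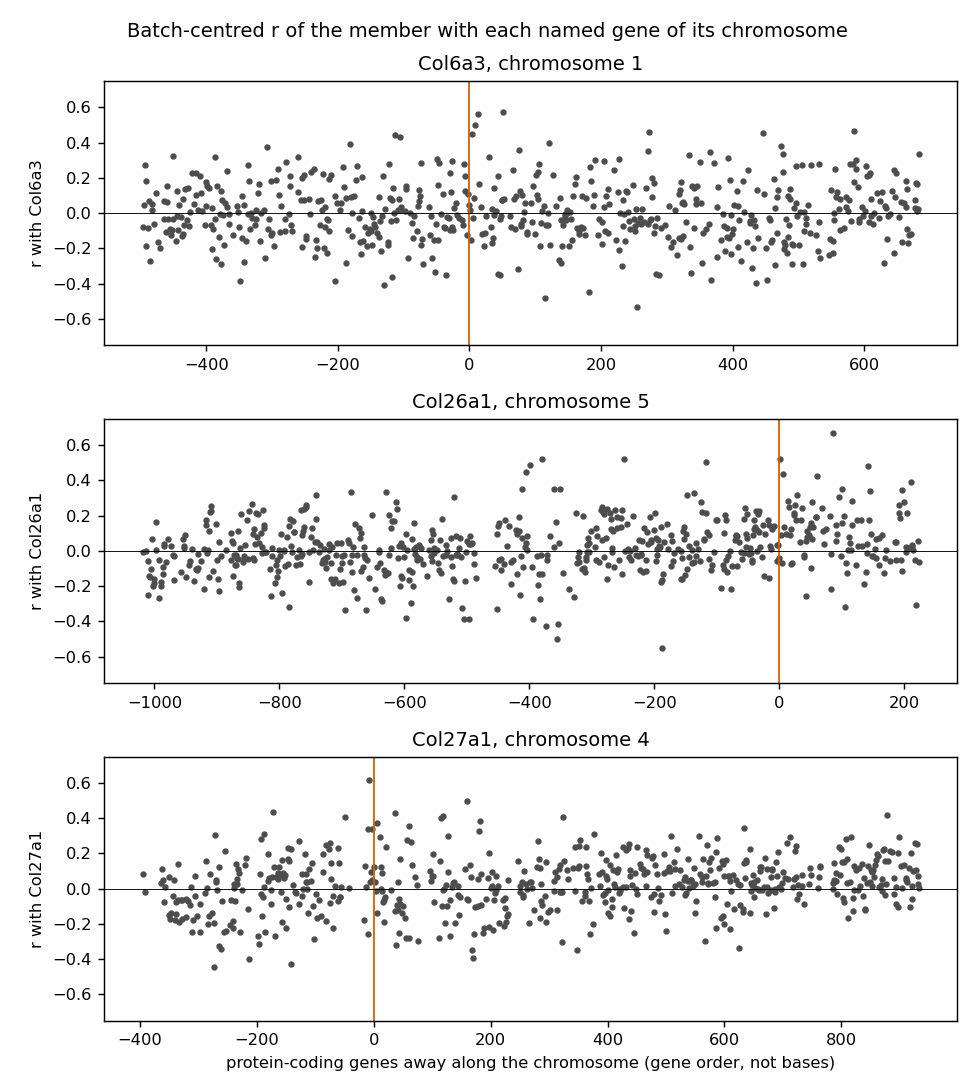
Batch-centred r of Col6a3, Col26a1 and Col27a1 with each named gene of their own chromosome, against the distance in protein-coding genes; the vertical line marks the member. High values stand near the line for Col6a3 (Hes6 at 0.56) and Col27a1 (Alad at 0.62), and several lie further along the chromosome, as Mafk (0.67) does for Col26a1.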

How the data were processed

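Labelled RNA of 292 mouse brains was measured on 2-colour arrays. The log10 ratios were used as deposited; the labels record neither the authors' normalization nor filters, and base 10 is assumed. Of 23574 probes, 25 missing on more than 5% of arrays were left out and 252 values were filled with the probe mean. Of 13665 probes with 1 annotated gene, 12662 matched the mouse gene table (GRCm38.p6) by gene ID; 48 had several genes and 9861 none. Signal over background is unknown, and precision rests on the number of arrays.

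Means against 0, batch contrasts and regressions on a gene or score with batch terms were fitted with limma 3.58.1 (R 4.3.3) on 23549 probes, with Benjamini-Hochberg adjustment, and levels with mclust 6.1.1; both were tested on simulated data. A call needed an adjusted p under 0.05 with 1.2-fold or an absolute r of 0.3. Alternatives dropped batch terms, took single batches, rescaled arrays, used ranks or averaged probes. Litters are not given in the labels.

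Named were the 8 members of largest SD, the 10 highest and 3 lowest pairs, adjacent members, the 5 nearest genes of each anchor, and the strongest calls of each score (5 for vascular, leptomeningeal and choroid plexus, 2 otherwise) and matrix list (2); further names were chosen after their values were seen. The members and lists were chosen with earlier results of these data known.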

Additional observations from a re-analysis of the deposited data

How the results depend on the processing

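Of 81 single values, 29 kept their call under every alternative run. Batch C alone was the hardest setting: 39 of 79 values fell under the threshold, and, with scores standardised anew within the batch, r of Lama2 with the neuron score (-0.00901) and of Col4a1 with the olfactory bulb score (-0.00752) changed sign. The first principal component as a further term took 20 of 79 under the threshold; the cause was not tested. Leaving out the 10 arrays of largest spread took 3. Both of these were chosen after seeing the data.

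Counts of members moved as follows, with the share of named genes called (positive and negative unless stated) in brackets where it was computed. Without the fold threshold 25 were called against the pool (69.7% in either direction) and 25 between batches. The shares by contrast in either direction were 63.8% for C and A, 61.8% for C and B and 1.58% for B and A. In batch C alone 1 was called against the pool, and no share was computed for it. Discrete levels were called for 4 members with means 2 SDs apart, and for 0 with means 4 SDs apart, with unequal variances or after batch centring. For these rules no share of named genes was computed. With Col4a1, batch A called 14 members (14.1% and 14.4%), batch B 12 (12% and 10.1%) and batch C 3 (11.2% and 4.62%). With Col1a1, 5 were called without batch terms (8.3% and 6.65%) and on ranks (6.32% and 5.46%), 10 in batch B (12% and 8.53%) and 7 in batch C (7.13% and 5.77%). With Lamc1, 1 was called without batch terms (0.646% and 0.0738%), with all probes averaged (0.498% and 0.0277%) and with the component (0.535% and 0.111%), and 4 in batch C (3.6% and 3.58%). The vascular score called 1 in batch A (3.96% and 1.71%) and on ranks (3.68% and 1.21%), and 7 in batch B (11.8% and 9.08%). The leptomeningeal score called 1 without batch terms (2.58% and 1.81%) and in batch C (2.28% and 1.9%), 4 in batch A (9.81% and 9.43%), 10 in batch B (12% and 10.1%) and 5 with the component (1.26% and 0.388%). The choroid plexus score called 2 without batch terms (3.71% and 2.88%) and in batch C (0.462% and 0.12%).

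No paired analysis was possible because all mice form 1 group.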
